A study of Mus musculus with 9 samples.

Results

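The pentose phosphate pathway was examined through the transcripts of 8 enzymes, *G6pdx*, *Pgls*, *Pgd*, *Rpia*, *Rpe*, *Tkt*, *Taldo1* and *Shpk*, which were taken by gene symbol from the 55471 genes counted. The pathway turns glucose 6-phosphate into NADPH and 5-carbon sugars. Its oxidative branch makes NADPH and ribulose 5-phosphate in an irreversible sequence, and its non-oxidative branch interconverts sugar phosphates reversibly and joins the pathway to glycolysis. In phagocytes and DCs, NADPH serves lipid synthesis, glutathione and thioredoxin reduction, the oxidative burst and nitric oxide synthesis, and ribose 5-phosphate is the starting point of nucleotide synthesis.

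RNA was sequenced from bone marrow-derived DCs of wild-type C57BL/6 mice, which were female and 8 to 20 weeks old per the study's methods, after culture with GM-CSF. The cells were left unstimulated, activated with LPS or treated with IFN-β for 6 h, at 100 ng/mL and 1000 U/mL according to the methods. LPS comes from the outer membrane of bacteria, IFN-β is an antiviral cytokine, and all 3 groups share the genotype and the GM-CSF culture. There were 3 libraries per group, lettered A to C, and no source used here says that the letters mark separate mice or cultures. The p-values therefore measure the spread between these libraries, which may be technical. GM-CSF cultures hold cells other than DCs, and in bulk RNA fewer cells of a type and less RNA per cell cannot be told apart.

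The libraries held 33425803 to 43735199 counts on genes, and 16260 genes passed the filter on low counts and were tested, with all 8 enzymes among them. All 8 DC markers, *Itgax* and *Flt3* included, and all 5 macrophage markers were detected in each group, with summed levels given in CPM (the counts of a gene relative to a library size corrected with edgeR's TMM factors). The DC markers summed to 4868 to 5753 CPM in unstimulated DCs, 6590 to 7486 CPM after LPS and 5544 to 5776 CPM after IFN-β, and the macrophage markers to 1728 to 2121, 1760 to 2241 and 2275 to 2534 CPM. Under LPS 3 of 5 macrophage markers were called higher and 2 lower, with *Fcgr1* going from 97.3 ± 31.8 to 446 ± 99.6 CPM and *Csf1r* from 1101 ± 87.9 to 562 ± 23.5 CPM (SD, n = 3), 2 genes chosen after their values were seen. Of the 8 DC markers, 6 were called higher and 0 lower under LPS. Over all genes tested, 32.8% were called higher and 35.4% lower under LPS. *Cd74* weighed most in the DC sums, with a mean of 2537 CPM in unstimulated DCs beside 3.06 CPM for *Flt3*. The part of these marker shifts in the results was not tested. The 6 lymphocyte markers summed to at most 0.354 CPM in any library, the 4 mast cell and basophil markers to at most 0.276 CPM, and the 6 granulocyte markers to 8.82 to 22.5 CPM. The 8 stimulation markers summed to 261 to 368 CPM in unstimulated DCs, 23108 to 27311 CPM after LPS and 5512 to 6815 CPM after IFN-β.

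LPS lowered most of the pathway and raised 1 enzyme. *Pgls*, *Pgd*, *Rpia*, *Tkt*, *Taldo1* and *Shpk* fell, *Rpe* rose, and *G6pdx* did not pass the test. After IFN-β, *Rpe* again rose and 4 enzymes fell (*Pgls*, *Rpia*, *Tkt* and *Shpk*), while *G6pdx*, *Pgd* and *Taldo1* did not pass. A change was called at an adjusted p under 0.05 in the quasi-likelihood test of edgeR, with Benjamini-Hochberg adjustment over the 16260 genes, here named edgeR's adjusted p. Under LPS, 6 of 8 enzymes were called lower where 35.4% of all genes tested were, and 1 of 8 higher where 32.8% were. Under IFN-β, 4 of 8 were lower and 1 of 8 higher, against 23.3% and 23.6% of all genes tested. The median log2 fold change of the 8 enzymes was -0.57 under LPS and -0.21 under IFN-β, beside -0.04 and -0.02 over all genes tested. The median absolute log2 fold change over all genes tested was 0.65 under LPS and 0.35 under IFN-β. Both comparisons use the same unstimulated libraries.

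**Figure D1:**
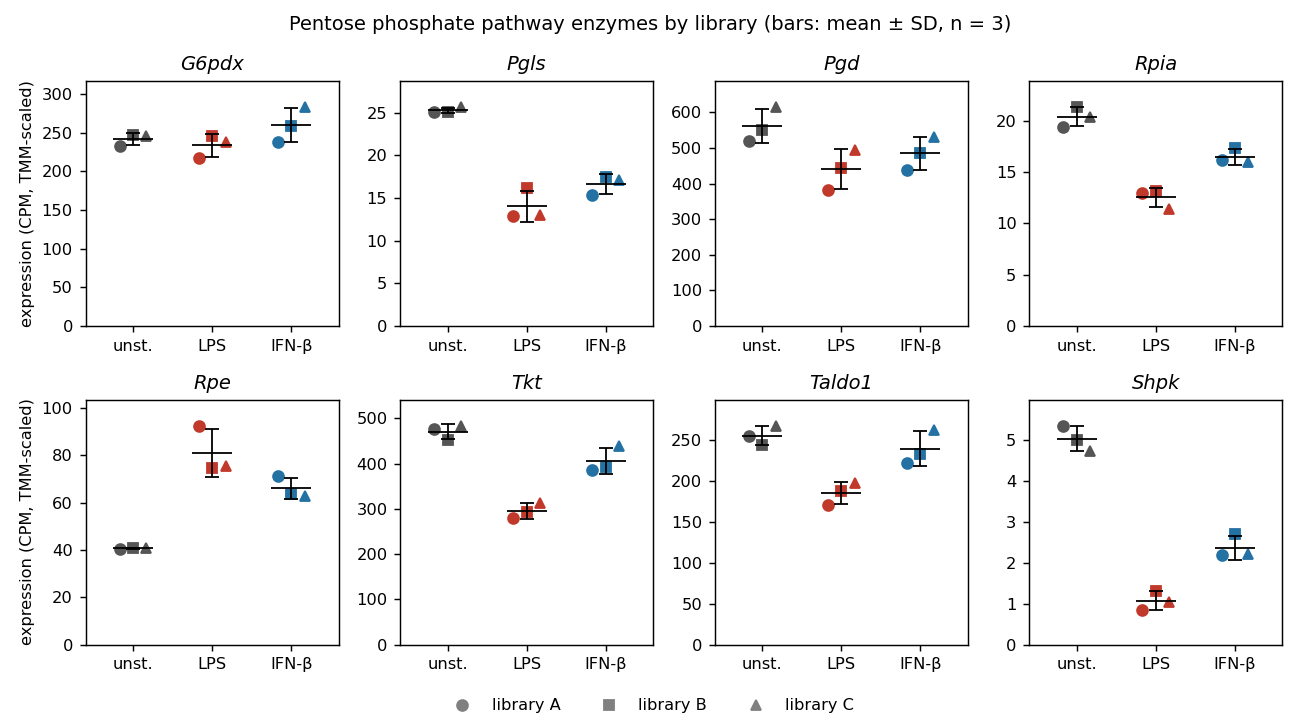
Expression of the 8 enzymes in each of the 9 libraries (y axis, TMM-scaled CPM from 0; x axis, group), with circles, squares and triangles for library A, B and C and bars for the mean ± SD (n = 3). *Rpe* is the enzyme whose LPS and IFN-β libraries all lie above the unstimulated ones, and *Shpk* falls from 5.03 CPM to 1.07 CPM after LPS and 2.37 CPM after IFN-β.

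The enzymes differed widely in level in unstimulated DCs. Per kilobase of annotated exon, the mean level was 118 CPM for *Taldo1*, 87.1 CPM for *Pgd*, 78.4 CPM for *G6pdx* and 64.0 CPM for *Tkt*. The others were lower, at 13.1 CPM per kilobase for *Rpe*, 6.71 for *Pgls*, 3.80 for *Rpia* and 1.69 for *Shpk*. The exon length covers all annotated transcripts and is long for *Tkt* (7355 bases) and *Pgd* (6447 bases) beside *Taldo1* (2171 bases), and with coding length *Pgd* led, followed by *Tkt*, *Taldo1* and *G6pdx*. *Pgd* stood above *G6pdx* per kilobase of exon in all 3 unstimulated libraries. *G6pdx* stood above *Pgd* in all 3 LPS libraries, at 70.5 against 59.3, 79.9 against 68.9 and 77.2 against 76.8 CPM per kilobase, and in all 3 IFN-β libraries, at 77.2 against 67.9, 83.9 against 75.2 and 91.8 against 82.4. This order rests on the exon lengths, since with coding length the mean of *Pgd* was above that of *G6pdx* in every group. *Shpk* had the lowest level per kilobase in all 3 groups on both lengths.

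*G6pdx* encodes glucose-6-phosphate dehydrogenase, the rate-limiting first enzyme of the oxidative branch. The gene (ENSMUSG00000031400) lies on the minus strand of chromosome X, at 74409483 to 74429194 of the GRCm38 build. Its level in libraries A to C was 233, 246 and 246 CPM in unstimulated DCs, 217, 246 and 238 CPM after LPS, and 238, 258 and 283 CPM after IFN-β. The 3 groups overlapped. The log2 fold change was -0.05 under LPS (95% interval -0.22 to 0.13, edgeR's adjusted p = 0.608) and 0.10 under IFN-β (95% interval -0.07 to 0.28, edgeR's adjusted p = 0.308). Under LPS, 49.7% of all genes tested had a lower log2 fold change, so *G6pdx* lay in the middle of them. Exons of *G6pdx* share 418 bases with those of *Ikbkg* on the other strand, which rose by 0.82 under LPS on the log2 scale (edgeR's adjusted p = 3.91e-05). The strand setting of the counting is not given in the sources used here, so which gene, if any, was given the reads in those bases is not known.

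*Pgls* encodes 6-phosphogluconolactonase, which hydrolyses the lactone made by glucose-6-phosphate dehydrogenase. The gene (ENSMUSG00000031807) is on the plus strand of chromosome 8, at 71592176 to 71601092. Unstimulated libraries A to C held 25.1, 25.2 and 25.7 CPM, LPS libraries 12.9, 16.2 and 13.0 CPM and IFN-β libraries 15.3, 17.4 and 17.1 CPM. All 6 stimulated libraries lay below all 3 unstimulated ones. *Pgls* fell by 0.85 under LPS on the log2 scale (standard error 0.10, edgeR's adjusted p = 1.64e-05) and by 0.61 under IFN-β (standard error 0.09, edgeR's adjusted p = 0.000464). Exons of *Pgls* share 776 bases with those of *Niban3* on the same strand, a gene with 30 to 73 counts per library beside 365 to 1137 for *Pgls*.

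*Pgd* encodes 6-phosphogluconate dehydrogenase, the second NADPH-producing enzyme, which releases ribulose 5-phosphate. It is on the minus strand of chromosome 4 (ENSMUSG00000028961, 149149991 to 149166771). The levels in libraries A to C were 520, 550 and 614 CPM in unstimulated DCs, 383, 445 and 495 CPM after LPS, and 438, 485 and 531 CPM after IFN-β. In every group library A was the lowest and library C the highest, and the LPS libraries lay below all unstimulated ones while the IFN-β libraries overlapped with them. *Pgd* fell by 0.35 under LPS on the log2 scale (standard error 0.11, edgeR's adjusted p = 0.0166). That call is lost without unstimulated library C, where the log2 fold change is -0.29 (edgeR's adjusted p = 0.0534), and without LPS library A, where it is -0.25 (edgeR's adjusted p = 0.0656). Under IFN-β the log2 fold change was -0.21 (95% interval -0.46 to 0.03, edgeR's adjusted p = 0.144). With the letters as a replicate block, *Pgd* was called lower under IFN-β as well, at the same log2 fold change of -0.21 (edgeR's adjusted p = 0.00775). Within letters A to C, the IFN-β library lay 0.25, 0.18 and 0.21 below the unstimulated one on the log2 scale.

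**Figure D2:**
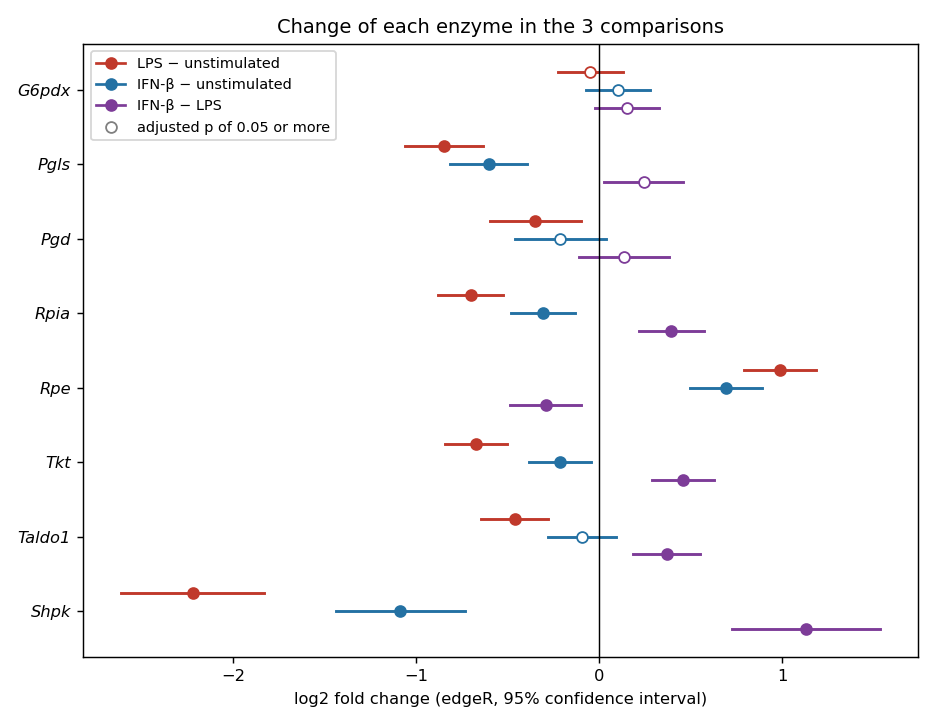
Log2 fold change of each enzyme (x axis) with its 95% confidence interval, for LPS minus unstimulated (red), IFN-β minus unstimulated (blue) and IFN-β minus LPS (purple); open circles have an adjusted p of 0.05 or more in edgeR's quasi-likelihood test. *Shpk* has the lowest values under both stimuli, *Rpe* lies above 0 under both, and the intervals of *G6pdx* include 0 in all 3 comparisons.

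The isomerase and the epimerase that share ribulose 5-phosphate as their substrate moved in opposite directions. *Rpia* encodes ribose-5-phosphate isomerase, which makes the ribose 5-phosphate used for nucleotides, and lies on the minus strand of chromosome 6 (ENSMUSG00000053604, 70765720 to 70792232). Libraries A to C held 19.4, 21.3 and 20.4 CPM in unstimulated DCs, 12.9, 13.2 and 11.4 CPM after LPS, and 16.1, 17.3 and 15.9 CPM after IFN-β. The 3 groups did not overlap, and the IFN-β libraries lay between the others. *Rpia* fell by 0.70 under LPS (standard error 0.08, edgeR's adjusted p = 1.8e-05) and by 0.31 under IFN-β (standard error 0.08, edgeR's adjusted p = 0.00875) on the log2 scale.

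*Rpe* encodes ribulose-5-phosphate 3-epimerase, which makes xylulose 5-phosphate, a substrate of transketolase. It is on the plus strand of chromosome 1 (ENSMUSG00000026005, 66700831 to 66719805). Its level was 40.5, 40.9 and 40.9 CPM in unstimulated libraries A to C, 92.4, 74.5 and 75.5 CPM in the LPS libraries, and 71.2, 63.7 and 62.9 CPM in the IFN-β libraries. Unstimulated DCs had the lowest levels, LPS-activated DCs the highest, and no groups overlapped. The rise was 1.98-fold under LPS (log2 fold change 0.99, standard error 0.09, edgeR's adjusted p = 2.69e-06) and 1.62-fold under IFN-β (log2 fold change 0.70, standard error 0.09, edgeR's adjusted p = 0.000123). Exons of *Rpe* share 558 bases with those of *Kansl1l* on the other strand. *Kansl1l* also rose, by 1.64 under LPS (edgeR's adjusted p = 1.01e-05) and 1.10 under IFN-β (edgeR's adjusted p = 0.000487) on the log2 scale, from 155 to 186 counts per unstimulated library to 353 to 421 after LPS and 256 to 457 after IFN-β. *Rpe* had 1598 to 1820 counts per unstimulated library, 2456 to 2612 after LPS and 2278 to 3041 after IFN-β. The rise of *Rpe* over its mean unstimulated level amounted to 803 to 1461 counts per stimulated library. Reads in the shared bases could have been given to either gene or to neither, and their part in the rise was not tested.

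The 250 bases before the RefSeq start of *Rpe* are shown because *Rpe* was the enzyme that rose, and its start region is the one among the 8 that held an interferon response element core. The window is chr1:66700581-66700830 of GRCm38, plus strand, from RefSeq, with the letters of every motif found in capitals.
Rpe: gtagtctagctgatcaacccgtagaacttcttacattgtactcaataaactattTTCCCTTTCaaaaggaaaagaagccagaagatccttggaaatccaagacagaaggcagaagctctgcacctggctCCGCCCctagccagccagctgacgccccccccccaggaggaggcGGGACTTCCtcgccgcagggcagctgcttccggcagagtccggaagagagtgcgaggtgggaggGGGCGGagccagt
The capitals are TTCCCTTTC at -196 from the start, a match to the interferon response element core TTCNNTTTC, GGGACTTCC at -77, a match to the NF-κB-like letters GGGNNTTCC and GGGNNNTCC at the same bases, and the Sp1 letters GGGCGG at -13 and, on the other strand, at -121. Both strands were searched. Of the 32851 mouse starts searched over the same length, 7.13% held TTCNNTTTC, 4.98% GGGNNTTCC, 15.2% GGGNNNTCC and 32.7% GGGCGG. A match is a description of the letters and was not tested for binding.

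*Tkt* encodes transketolase, which moves 2-carbon units between sugar phosphates with thiamine diphosphate as its cofactor. The gene is on the plus strand of chromosome 14 (ENSMUSG00000021957, 30548359 to 30574720). Libraries A to C held 476, 453 and 484 CPM in unstimulated DCs, 279, 294 and 312 CPM after LPS, and 385, 393 and 440 CPM after IFN-β. The groups did not overlap. *Tkt* fell by 0.67 under LPS on the log2 scale (standard error 0.08, edgeR's adjusted p = 1.75e-05). The fall under IFN-β was 0.21 (standard error 0.08, edgeR's adjusted p = 0.0406), and leaving out a library ended that call in 6 of 9 fits. With unstimulated library A, B or C, LPS library B, or IFN-β library A or B left out, the log2 fold change lay between -0.25 and -0.18, with edgeR's adjusted p between 0.051 and 0.132.

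*Taldo1* encodes transaldolase, which moves 3-carbon units between sugar phosphates. It is on the plus strand of chromosome 7 (ENSMUSG00000025503, 141392199 to 141402968). Its levels were 254, 244 and 267 CPM in unstimulated libraries A to C, 171, 188 and 197 CPM after LPS, and 221, 233 and 263 CPM after IFN-β. The LPS libraries were below all others, while the IFN-β libraries overlapped with the unstimulated ones. *Taldo1* fell by 0.46 under LPS on the log2 scale (standard error 0.08, edgeR's adjusted p = 5e-04), and its log2 fold change under IFN-β was -0.09 (95% interval -0.28 to 0.09, edgeR's adjusted p = 0.381).

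*Shpk* encodes sedoheptulokinase, which phosphorylates sedoheptulose and so feeds the non-oxidative branch. It had the largest change of the 8 enzymes under both stimuli. The counts were 211, 223 and 210 in unstimulated libraries A to C, 24, 45 and 34 after LPS, and 93, 102 and 80 after IFN-β. Those counts correspond to 5.35, 5.01 and 4.74 CPM, 0.849, 1.31 and 1.04 CPM, and 2.18, 2.71 and 2.21 CPM. No groups overlapped, and the IFN-β libraries lay between the others. The fall was 4.66-fold under LPS (log2 fold change -2.22, standard error 0.18, edgeR's adjusted p = 1.02e-06) and 2.13-fold under IFN-β (log2 fold change -1.09, standard error 0.16, edgeR's adjusted p = 0.000299). Of all genes tested, 4.54% had a lower log2 fold change under LPS and 3.87% under IFN-β. The 3 LPS libraries together held 103 counts (exact Poisson 95% interval 84.1 to 125), against 644 counts (595 to 696) in unstimulated DCs, where the intervals cover counting error only.

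*Shpk* (ENSMUSG00000005951, chromosome 11, 73199460 to 73224511, plus strand) starts 418 bases from the start of *Ctns*, which encodes the lysosomal cystine transporter and runs the other way. *Ctns* had 1169 to 1190 counts per unstimulated library, 224 to 256 after LPS and 690 to 872 after IFN-β. It fell by 1.87 under LPS (edgeR's adjusted p = 2.29e-08) and by 0.50 under IFN-β (edgeR's adjusted p = 0.000511) on the log2 scale, beside 2.22 and 1.09 for *Shpk*. The stretch just before *Shpk* is shown because it lies between these starts. It is chr11:73199232-73199459 of GRCm38, plus strand, from RefSeq, with annotated transcript bases left off.
Shpk: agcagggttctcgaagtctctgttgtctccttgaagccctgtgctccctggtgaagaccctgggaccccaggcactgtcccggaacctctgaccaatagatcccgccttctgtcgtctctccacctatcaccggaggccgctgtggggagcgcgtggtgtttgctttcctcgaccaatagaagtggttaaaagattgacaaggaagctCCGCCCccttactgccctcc
The capitals mark the Sp1 letters GGGCGG read on the other strand, the motif found among those searched. All 8 enzymes held GGGCGG in the window of a start, where 32.7% of all starts searched held it. The *Rpia* match, at -7, lies in the 57 bases of its window that are annotated as untranslated transcript. The *G6pdx* match, at -150, also lies within annotated transcript. *Pgd* has a second RefSeq start whose window held none of the motifs. The antioxidant response element core TGACNNNGC was found for *G6pdx*, at -57, and for no other enzyme, and 10.2% of all starts held it. All 250 bases of that *G6pdx* window are annotated as untranslated bases of a transcript, so the match lies within annotated transcript. The E-box CACGTG, the STAT letters TTCNNNGAA and the AP-1 letters TGACTCA, held by 6.02%, 7.02% and 4.46% of all starts, were in none of the windows, and GGGNNNTCC was also found for *Pgls*.

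The question whether the stimuli differ was put directly to the IFN-β and LPS libraries, without the unstimulated ones in the contrast. *Rpia*, *Tkt*, *Taldo1* and *Shpk* were higher in IFN-β-treated than in LPS-activated DCs and *Rpe* was lower, so 4 of 8 enzymes were called higher and 1 of 8 lower, against 25.8% and 23.3% of all genes tested. The log2 difference was 1.13 for *Shpk* (standard error 0.18, edgeR's adjusted p = 0.000455), 0.46 for *Tkt* (standard error 0.08, edgeR's adjusted p = 0.000594), 0.40 for *Rpia* (standard error 0.08, edgeR's adjusted p = 0.00221) and 0.37 for *Taldo1* (standard error 0.08, edgeR's adjusted p = 0.00385). For *Rpe* it was -0.29 (standard error 0.09, edgeR's adjusted p = 0.0179). The *Rpe* call is lost without IFN-β library B, with -0.27 (edgeR's adjusted p = 0.0671), and without IFN-β library C, with -0.26 (edgeR's adjusted p = 0.0642).

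The 3 oxidative enzymes did not pass the test between the stimuli. Their log2 differences, IFN-β minus LPS, were 0.15 for *G6pdx* (95% interval -0.02 to 0.33, edgeR's adjusted p = 0.137), 0.24 for *Pgls* (0.03 to 0.46, edgeR's adjusted p = 0.06) and 0.14 for *Pgd* (-0.11 to 0.38, edgeR's adjusted p = 0.338). With the replicate block, *G6pdx* (0.15, edgeR's adjusted p = 0.042) and *Pgls* (0.24, edgeR's adjusted p = 0.0205) were called higher after IFN-β and *Pgd* was not (0.14, edgeR's adjusted p = 0.0601). *Pgls* was also called without LPS library B (0.35, edgeR's adjusted p = 0.00748) and without IFN-β library A (0.29, edgeR's adjusted p = 0.0424). An exact two-sided permutation test of 3 libraries against 3 cannot go below p = 0.1, and gave 0.1 for every enzyme and comparison in which the groups did not overlap.

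Ratios of counts inside a library do not depend on the scaling between libraries. The *Rpe* to *Rpia* ratio in libraries A to C was 2.08, 1.92 and 2.003 in unstimulated DCs, 7.14, 5.65 and 6.60 after LPS, and 4.41, 3.68 and 3.95 after IFN-β. The groups did not overlap, and their means were 2.002 ± 0.0828, 6.46 ± 0.755 and 4.01 ± 0.373 (SD, n = 3). The *Tkt* to *Taldo1* ratio was 1.85 ± 0.0325 in unstimulated DCs, 1.595 ± 0.0358 after LPS and 1.70 ± 0.0351 after IFN-β (SD, n = 3), with all groups apart. The *G6pdx* to *Pgd* ratio was 0.432 ± 0.0274 in unstimulated DCs, 0.534 ± 0.0471 after LPS and 0.536 ± 0.00603 after IFN-β (SD, n = 3). The unstimulated libraries lay below all others for this pair, and the LPS and IFN-β libraries overlapped. *Shpk* had 10.7 ± 0.784, 3.62 ± 0.751 and 5.86 ± 0.954 counts per 1000 counts of *Tkt* in unstimulated, LPS-activated and IFN-β-treated DCs (SD, n = 3).

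**Figure D3:**
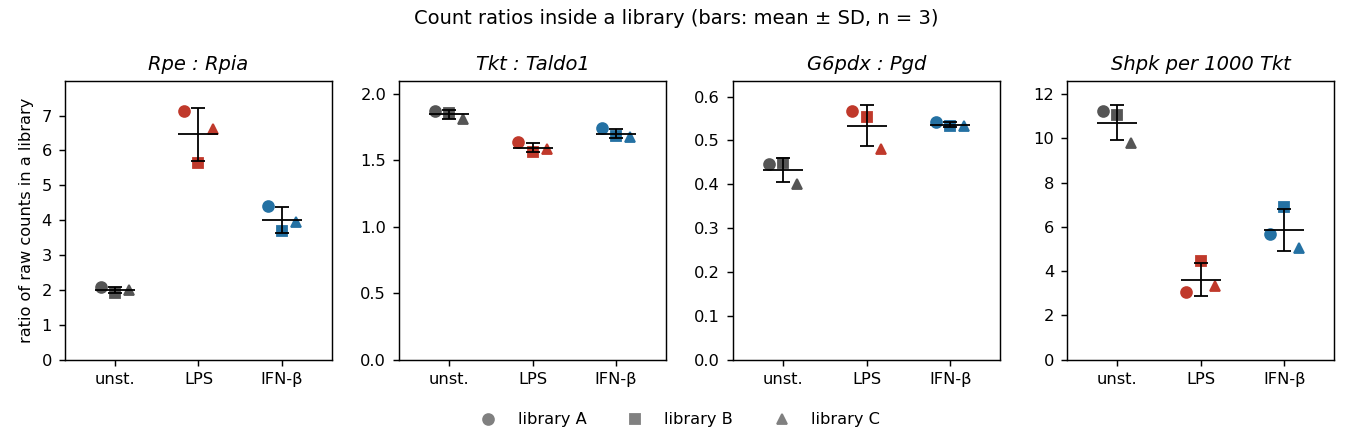
Count ratios inside each library (y axis, from 0; x axis, group) for *Rpe* to *Rpia*, *Tkt* to *Taldo1*, *G6pdx* to *Pgd* and *Shpk* per 1000 *Tkt*, with circles, squares and triangles for library A, B and C and bars for the mean ± SD (n = 3). The *Rpe* to *Rpia* ratio goes from 1.92 to 2.08 in unstimulated libraries to 5.65 to 7.14 after LPS and 3.68 to 4.41 after IFN-β.

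The makeup of the pathway's transcripts was taken as each enzyme's share of the summed counts per kilobase of exon. These shares restate the same counts as the levels and ratios above and are not separate support for them. The share of *Rpe* went from 3.52% ± 0.127 in unstimulated DCs to 8.66% ± 1.61 after LPS and 6.02% ± 0.841 after IFN-β, and that of *Tkt* from 17.2% ± 0.535 to 13.3% ± 0.228 and 15.6% ± 0.281 (SD, n = 3). *G6pdx* took 21.1% ± 0.756 in unstimulated DCs, 25.1% ± 0.893 after LPS and 23.8% ± 0.343 after IFN-β (SD, n = 3). A share also moves when the other enzymes change, and the level of *G6pdx* itself passed the test under neither stimulus. The share of *Shpk* was 0.454% ± 0.0431, 0.118% ± 0.0223 and 0.225% ± 0.0336 in the same order (SD, n = 3). The 3 oxidative enzymes together held 46.2% ± 1.22 in unstimulated DCs, 48.9% ± 1.51 after LPS and 46.2% ± 0.900 after IFN-β (SD, n = 3). Within letters A to C, the oxidative share went from 44.9% to 47.2%, from 47.2% to 49.99% and from 46.7% to 49.6% with LPS, higher in 3 of 3. With coding length it went from 49.2% to 48.7%, from 51.4% to 52.5% and from 51.7% to 52.8%, higher in 2 of 3, so the direction in letter A rests on the length used.

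Of 4 related genes that encode similar enzymes, 1 was expressed above the filter. *H6pd*, which encodes a glucose-6-phosphate dehydrogenase of the endoplasmic reticulum, had 45.5, 36.9 and 36.7 CPM in unstimulated libraries A to C, 25.1, 25.4 and 25.5 CPM after LPS, and 27.2, 24.1 and 26.0 CPM after IFN-β. All stimulated libraries were below the unstimulated ones. *H6pd* fell by 0.65 under LPS (standard error 0.09, edgeR's adjusted p = 7.96e-05) and by 0.62 under IFN-β (standard error 0.09, edgeR's adjusted p = 0.000273) on the log2 scale. *G6pd2*, a near copy of *G6pdx* without introns, had 0 to 9 counts per library and the transketolase-like genes *Tktl1* and *Tktl2* had 0 to 2, too few to be tested.

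A list of 13 genes was tested around ribose 5-phosphate and the nucleotide synthesis that starts from it: the phosphoribosyl pyrophosphate synthetases and their associated proteins, later enzymes of purine and pyrimidine synthesis, and the genes *Rbks* and *Dera* for enzymes of ribose and deoxyribose phosphates. Of the 13, 12 were called lower and 1 higher under LPS, against 35.4% and 32.8% of all genes tested, and 9 were called lower under IFN-β, against 23.3%, with median log2 fold changes of -1.24 and -0.73. At 6 h under LPS the largest falls were those of *Gart*, from 68.4 ± 5.59 to 18.0 ± 1.86 CPM (SD, n = 3; log2 fold change -1.92, edgeR's adjusted p = 5.72e-08), and *Pfas*, from 31.7 ± 3.05 to 8.64 ± 1.02 CPM (SD, n = 3; -1.87, edgeR's adjusted p = 1.01e-07). Both encode enzymes of purine synthesis. Under IFN-β they were those of *Pfas* (-1.31, edgeR's adjusted p = 6.42e-06) and *Atic* (-1.23, edgeR's adjusted p = 1.65e-05), also in purine synthesis. *Prpsap1*, named after its values were seen, was the gene that rose under LPS, by 0.41, and it encodes a protein associated with phosphoribosyl pyrophosphate synthetase. Between the stimuli, 9 of the 13 were higher after IFN-β and 1 lower (*Prpsap1*), with *Gart* (0.79, edgeR's adjusted p = 9e-05) and *Prps2* (0.76, edgeR's adjusted p = 2.87e-05) in the lead. Proliferation markers moved as well: 6 of 7 were lower under LPS and 6 of 7 lower and 1 higher under IFN-β. Their summed level was 371 to 431 CPM in unstimulated DCs, 256 to 281 CPM after LPS and 317 to 338 CPM after IFN-β, and their part in the results for this list or the pathway was not tested.

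Genes for glucose entry and for enzymes that make or use glucose 6-phosphate moved in both directions. Of 10, LPS raised 5 and lowered 4, and IFN-β raised 5 and lowered 3, and between the stimuli 4 were higher and 3 lower after IFN-β. Over all genes tested the shares called higher and lower were 32.8% and 35.4% under LPS, 23.6% and 23.3% under IFN-β, and 25.8% and 23.3% between the stimuli, and the counts of each list are to be read against them. The largest rises were those of the glucose transporter gene *Slc2a6* under LPS (113 ± 7.27 to 571 ± 73.1 CPM, SD, n = 3; log2 fold change 2.34, edgeR's adjusted p = 3.17e-08) and of *Hk3*, a hexokinase gene, under IFN-β (178 ± 35.4 to 545 ± 55.7 CPM, SD, n = 3; 1.62, edgeR's adjusted p = 1.8e-05). *Hk3* rose by 1.63 under LPS and *Slc2a6* by 1.19 under IFN-β on the log2 scale. *Slc2a6* was lower after IFN-β than after LPS by 1.15 on the log2 scale (edgeR's adjusted p = 1.11e-05), and so was *Slc2a3*, by 0.95, at 28 to 97 counts per LPS library and 29 to 46 per IFN-β library (edgeR's adjusted p = 0.0487). Of 7 glycolytic genes tested that share intermediates with the pathway, of 9 listed, LPS raised 1 and lowered 4 and IFN-β raised 1 and lowered 3 (1 and 5, and 2 and 3, with the replicate block). Of the genes not tested, *Fbp1* had too few counts. *Aldoa* was left out because its symbol was not unique among the genes counted, which says nothing about its level. *Pfkp*, a phosphofructokinase gene, rose by 1.23 (edgeR's adjusted p = 3.89e-07) and *Tpi1*, the triosephosphate isomerase gene, fell by 1.03 (edgeR's adjusted p = 1.63e-05) under LPS on the log2 scale. *Pfkm* (-1.11, edgeR's adjusted p = 0.000163) and *Aldoc* (-0.72, edgeR's adjusted p = 0.00203) led the falls under IFN-β. Between the stimuli 2 were higher and 2 lower after IFN-β, with *Pfkm* (-1.01, edgeR's adjusted p = 0.000249) and *Pfkl* (0.97, edgeR's adjusted p = 6.84e-05) differing most.

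Of 11 tested genes for other NADPH sources, of 13 listed, LPS raised 4 and lowered 4, near the 32.8% and 35.4% of all genes tested, and IFN-β raised 2 and lowered 4, against 23.6% and 23.3%. With the replicate block IFN-β lowered 6, where the block called 28.4% of all genes tested lower. Of the genes not tested, *Me3* had too few counts. *Nnt* was left out because its symbol was not unique among the genes counted, which says nothing about its level. *Idh1*, the gene of cytosolic isocitrate dehydrogenase, went from 215 ± 21.1 CPM to 50.5 ± 4.29 CPM after LPS (SD, n = 3; log2 fold change -2.09, edgeR's adjusted p = 1.34e-08). *Mthfd1*, a folate cycle gene, fell by 2.59 under LPS (edgeR's adjusted p = 2.12e-07) and by 1.77 under IFN-β (edgeR's adjusted p = 1.17e-05), and *Aldh1l1* rose by 0.96 under IFN-β (edgeR's adjusted p = 0.000227), all on the log2 scale. Between the stimuli 5 were higher and 5 lower after IFN-β. *Idh1* was higher by 1.58 (edgeR's adjusted p = 2.19e-07), and *Aldh1l2*, at 4 to 13 counts per library, was lower by 1.28 (edgeR's adjusted p = 0.00886).

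Of 14 genes whose products use NADPH, 6 rose and 6 fell under LPS, and 3 rose and 6 fell under IFN-β, against 32.8% and 35.4% of all genes tested under LPS and 23.6% and 23.3% under IFN-β. With the replicate block 6 rose and 7 fell under LPS, where it called 35.4% of all genes tested higher and 38.1% lower. Under IFN-β 4 rose and 8 fell with the block, against 27.9% and 28.4%. *Nos2*, the inducible nitric oxide synthase gene, had 41 to 139 counts per unstimulated library, 117822 to 136337 after LPS and 2325 to 4765 after IFN-β. Its log2 fold change was 10.89 under LPS (edgeR's adjusted p = 1.8e-08) and 5.38 under IFN-β (edgeR's adjusted p = 3.83e-06). *Fasn*, the fatty acid synthase gene, went from 216 ± 24.9 to 22.01 ± 1.66 CPM after LPS (SD, n = 3; log2 fold change -3.29, edgeR's adjusted p = 2.73e-09) and to 63.9 ± 3.68 CPM after IFN-β (SD, n = 3; -1.76, edgeR's adjusted p = 8.83e-07). Between the stimuli 6 were higher and 4 lower after IFN-β, with *Nos2* (-5.51, edgeR's adjusted p = 8.94e-07) and *Gsr*, the glutathione reductase gene (-1.74, edgeR's adjusted p = 3.04e-06), differing most.

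Genes for regulators of the pathway were tested in the same way, and 5 of 12 rose and 5 fell under LPS while 5 rose and 2 fell under IFN-β, against 32.8% and 35.4% of all genes tested under LPS and 23.6% and 23.3% under IFN-β. *Myc*, a transcription factor gene linked to growth, went from 38.3 ± 5.15 to 4.34 ± 0.638 CPM after LPS (SD, n = 3; log2 fold change -3.13, edgeR's adjusted p = 6.24e-08). *Mafk*, which encodes a small Maf protein that pairs with NRF2 or BACH1, rose by 1.64 under LPS (edgeR's adjusted p = 1.21e-06) and 1.39 under IFN-β (edgeR's adjusted p = 1.8e-05) on the log2 scale. *Keap1*, which encodes the inhibitor of NRF2, rose by 0.96 under IFN-β (edgeR's adjusted p = 7.13e-06). Between the stimuli 4 were higher and 2 lower after IFN-β, and 5 and 6 with the replicate block. The block called 30.3% of all genes tested higher and 27.6% lower in that comparison. *Myc* (2.51, edgeR's adjusted p = 8.29e-07) and *Bach1* (0.73, edgeR's adjusted p = 6.2e-05) differed most in the main test.

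**Figure D4:**
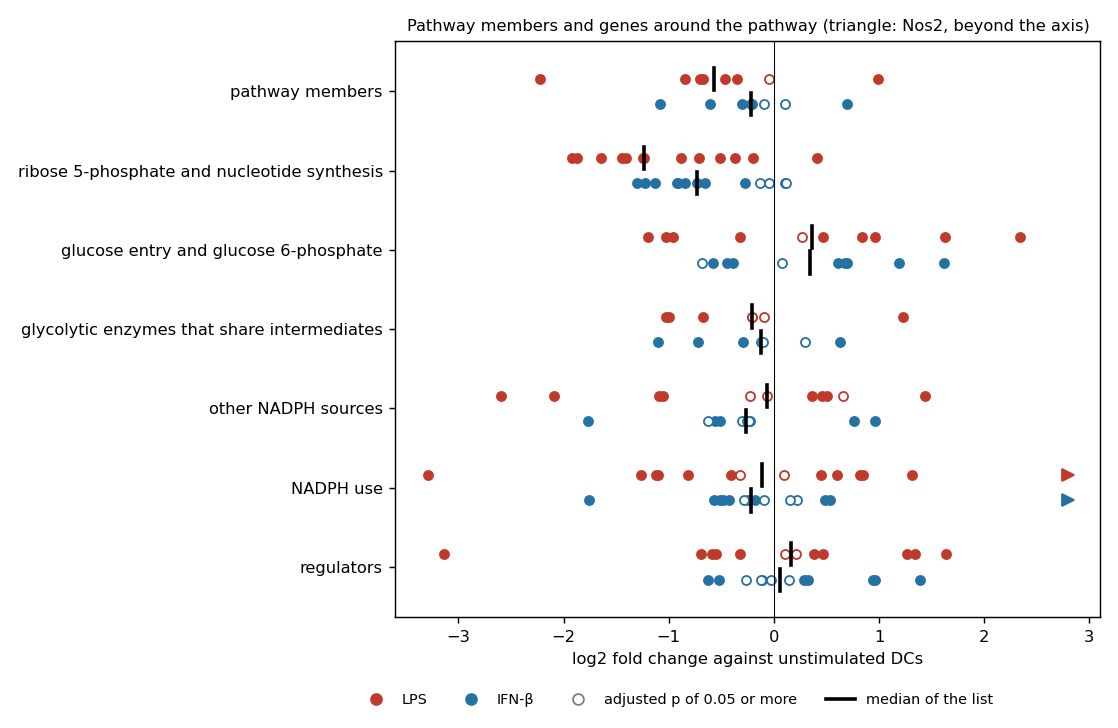
Log2 fold change against unstimulated DCs (x axis) of the 8 enzymes and of 6 lists of genes around the pathway (y axis), with LPS in red and IFN-β in blue, open circles for an adjusted p of 0.05 or more and black bars for list medians. The list of ribose 5-phosphate and nucleotide synthesis has medians of -1.24 and -0.73, and *Nos2* (10.89 and 5.38) lies beyond the axis and is drawn as a triangle at its edge.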

How the data were processed

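RNA from 9 libraries of GM-CSF-cultured mouse DCs was depleted of ribosomal RNA. The authors deposited unnormalized counts of reads per gene, made with Trim Galore 0.6.0 and STAR 2.7.8a per the submitters' processing notes (the methods name an earlier STAR release), on GRCm38 with GENCODE genes. The strand counted is not given in the sources used here.

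Counts were tested in R 4.3.3 with edgeR 4.0.16 (limma 3.58.1): filterByExpr, TMM factors (1.18 to 1.26 in unstimulated, 0.783 to 0.841 in LPS and 0.977 to 1.02 in IFN-β libraries), 1 term per group over all 9 libraries, quasi-likelihood F-tests and Benjamini-Hochberg adjustment over the genes tested. The standard error is the log2 fold change divided by the square root of F. A count of 3 was the floor, which is 0.0674 to 0.106 CPM. Differences inside a letter used log2(CPM + 0.5). Counts were also simulated for all 9 libraries, with means and spread estimated over all groups and 2-fold changes set in the LPS libraries. For LPS against unstimulated, 127 of 195 changed genes were recovered (65.1%), and 5.22% of the calls were false. Only those 195 of the 15968 genes run were changed, and no effect of the letters was simulated. In the data, 35.4% of all genes tested were called lower and 32.8% higher under LPS. The simulated rates therefore do not carry over to the calls made here.

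The members and gene lists were chosen with earlier results of these data known. Named were all 8 members, the 2 genes past the threshold with the largest change per list and comparison, isozymes, genes with overlapping exons, and the neighbour of *Shpk*. Gene models were from GENCODE M21, which held all 131 genes listed, and start regions from RefSeq (GRCm38), which held all 8 members; protein sequences were not used here. Replicates differed beyond counting noise in every pair. After group means were subtracted, the 9 same-letter pairs of libraries correlated at 0.12 to 0.47 across genes. The letters were therefore taken to pair the libraries in the replicate block, from the data and not from the labels. The main test did not pair them. Alternatives were DESeq2 1.42.0, library-size and upper-quartile scaling, 2 other filters, fits of 2 groups, the replicate block, each library left out, 2 stricter thresholds and coding length. The genes most like *Tkt* and 1 marker list are not reported here.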

Additional observations from a re-analysis of the deposited data

How the results depend on the processing

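Scaling moved the values most. With library size alone, the median of all genes tested shifted by -0.58 under LPS, -0.31 under IFN-β and 0.27 between the stimuli, and 60.9% of genes were called lower and 17.1% higher under LPS. *G6pdx* then read -0.63 under LPS and -0.20, against 0.10, under IFN-β, and *Rpe* -0.01 between the stimuli (edgeR's adjusted p = 0.9). Relative to the shifted median these were -0.01, 0.12 and -0.31. A change of scaling moves all genes by nearly the same amount, so values relative to the median cannot decide between scalings. With scaling by library size alone, *Pgd* (-0.52) and *Taldo1* (-0.40) were also called lower under IFN-β, and *Rpe* was called higher under both stimuli (0.40 and 0.39). *G6pdx* was called lower under LPS (edgeR's adjusted p = 7.82e-05), and *G6pdx*, *Pgls* and *Pgd* were called higher after IFN-β than after LPS, at 0.43, 0.52 and 0.41 (edgeR's adjusted p = 0.00254, 0.00268 and 0.0183). Without LPS replicate A, *G6pdx* changed sign under LPS, with a range over the libraries left out of -0.0871 to 0.00428. A minimum of 1 for the absolute log2 fold change left 1 enzyme called in each comparison, *Shpk*. With no filter on low counts, *Tkt* under IFN-β had an adjusted p of 0.0809 in edgeR's quasi-likelihood test. With the letters as a paired replicate block, 7 of 8 enzymes were called under LPS, 6 under IFN-β and 7 between the stimuli. Of all genes tested, the block called 38.1% lower and 35.4% higher under LPS, and 28.4% and 27.9% under IFN-β. Between the stimuli it called 27.6% lower and 30.3% higher. These shares are all above those of the main test, so calls were gained over all genes and not only in the lists around the pathway. The block changed no call of the enzymes other than those given for *Pgd*, *G6pdx* and *Pgls*. With coding length from the annotation, the oxidative branch held 50.8% in unstimulated DCs, 51.3% after LPS and 49.3% after IFN-β, and the LPS and unstimulated groups then differed by less than the spread between libraries. Of 384 log2 fold changes under alternatives, 359 kept their direction and their side of the threshold. Depth limits *Shpk* most, and the LPS libraries hold 24 to 45 of its counts.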

Other observations

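Over the 9 libraries, the levels of *Tkt* and *Taldo1* followed each other (Pearson r of log2 CPM 0.98), as did those of *Shpk* and *Rpia* (0.96) and *Shpk* and *Pgls* (0.96), while *Rpe* ran against *Pgls* (-0.98) and *Shpk* (-0.97). These are descriptions over points that share 3 groups and 3 letters. *G6pdx* stood apart, with values between -0.20 and 0.60 against the other enzymes, and 1 gene of all those tested had a correlation with it above 0.95, where *Shpk* had 1261 and *Rpe* 1045. The 3 genes most like *Shpk* were *Abhd4*, *Surf2* and *Triap1*, with r from 0.996 to 0.998. Those most like *Rpe* were *Bloc1s6*, *Gm44291* and *Rbl1* (0.994 to 0.997). *Taldo1* was most like *Flna*, *Mras* and *Clec4n* (0.984 to 0.995), *Pgd* most like *Gm45294*, *Lrba* and *Firre* (0.984 to 0.988), *Rpia* most like *Haao*, *Cdca5* and *Card9* (0.993 to 0.995), *Pgls* most like *Med25*, *Snhg16* and *5730409E04Rik* (0.994 to 0.996), and *G6pdx* most like *Zfp28*, *Fam83h* and *Lrrk1* (0.934 to 0.961).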
